A study of Mus musculus with 8 samples.

Results

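The miR-290 to miR-295 cluster is a run of miRNA hairpins on mouse chromosome 7, followed here through its 10 mature products listed by name: mmu-miR-290a-5p, mmu-miR-290a-3p, mmu-miR-291a-5p, mmu-miR-291a-3p, mmu-miR-292a-5p, mmu-miR-292a-3p, mmu-miR-293-5p, mmu-miR-293-3p, mmu-miR-294-3p and mmu-miR-295-3p (written below without the species prefix). They were taken by name alone, whatever their signal, and all 10 were on the array among its 1881 mouse miRNAs. Exosomes, small membrane vesicles released by cells, had been purified from mouse amniotic fluid by size exclusion, and their RNA had been hybridised to 1-colour Agilent miRNA arrays. In the LPS group (n = 4 arrays) pregnant mice had received lipopolysaccharide, the bacterial cell wall component, at 100 μg/kg by intraperitoneal injection on gestational day 14, and preterm birth followed about 48 h later. In the cesarean group (n = 4 arrays) the amniotic fluid came from cesarean sections. The labels put every sample at day 17 of pregnancy, which is later than day 14 plus 48 h. They name no strain or genotype, do not say how the cesarean mice were treated, and do not say whether replicates are separate animals. The p-values below therefore measure only the spread between these arrays, which may be technical.

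In the mouse the cluster is transcribed as 1 long precursor and processed into several hairpins. It is known as the most abundant miRNA group of mouse embryonic stem cells, it is also made in trophoblast of the placenta, and it is silenced in most adult tissues. Its 3p products mostly carry a shared AAGUGC core near their 5′ end and in mouse stem cells repress inhibitors of the cell cycle, among them Cdkn1a. A miRNA finds its targets mainly through its seed, taken here as bases 2 to 8.

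The mature sequences are shown because the seed divides the cluster into groups and because near-identical members can share probe signal. They are RefSeq entries of the mouse build GRCm38.p6, which gave 9 of the 10 members, written 5′ to 3′ with the seed in capitals.
miR-290a-5p: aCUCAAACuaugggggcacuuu
miR-292a-5p: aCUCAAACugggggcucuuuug
miR-293-5p: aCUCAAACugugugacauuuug
miR-291a-5p: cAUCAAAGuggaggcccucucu
miR-290a-3p: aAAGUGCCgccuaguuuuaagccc
miR-291a-3p: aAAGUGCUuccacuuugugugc
miR-294-3p: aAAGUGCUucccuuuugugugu
miR-295-3p: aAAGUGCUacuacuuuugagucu
miR-293-3p: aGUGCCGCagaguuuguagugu
miR-292a-3p is not in the table and is named only.
The seed AAGUGCU was shared by 3 members, miR-291a-3p, miR-294-3p and miR-295-3p. The seed CUCAAAC was shared by 3 of the 5p members. Among the 9 members with an entry, the others each had a seed of their own. The seed of miR-292a-3p was not compared. miR-291a-3p and miR-294-3p matched at 19 of 22 bases when aligned from their 5′ ends, and the other pairs of 3p members with an entry matched at 6 to 15 positions.

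Each miRNA was read by up to 4 probes of different length, each printed on several spots. The probe that was brightest over all arrays stood for the miRNA. These reporting probes are given as the files hold them, 5′ to 3′, with the bases that pair with the seed in capitals.
miR-290a-5p probe: aaagtgcccccat
miR-291a-3p probe: gcacacaaagtggaAGCACT
miR-292a-3p probe: acactcaaaacctggcggc
miR-293-3p probe: acactacaaactctGCGGC
miR-294-3p probe: acacacaaaagggaAGCACTT
miR-295-3p probe: agactcaaaagtagtAGCACTT
The 13-base probe of miR-290a-5p paired with bases 10 to 22 of the miRNA and with 0 seed bases. No base of the miR-292a-3p probe is in capitals because its mature sequence was not used here. The miR-291a-3p probe had 3 mismatches to miR-294-3p and the miR-294-3p probe had 3 to miR-291a-3p, so signal shared between these 2 miRNAs cannot be told apart from signal of their own. The miR-295-3p and miR-293-3p probes had at least 5 and 7 mismatches to any other mature miRNA in the table, while the short miR-290a-5p probe had only 2 to miR-292a-5p. miR-292a-3p is not in that table, so mismatches of other probes to it were not counted. Its own probe had 5 mismatches to miR-293-3p, its nearest match. In the files' mm9 coordinates the mapped probes of the cluster lay on chromosome 7 between 3218647 and 3220838, within 2191 bases. Positions were given for 8 members and not for the 2 products of miR-291a. The miR-290a-5p probe was placed at 3218649 to 3218660, that of miR-292a-3p at 3219244 to 3219261, that of miR-293-3p at 3220395 to 3220412, that of miR-294-3p at 3220694 to 3220713 and that of miR-295-3p at 3220818 to 3220838. Each span in the files is 1 base shorter than its probe.

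Between 403 and 551 miRNAs were well above background per array, meaning that the scanner software passed at least a share of 0.5 of the spots of the reporting probe. The 75th percentile of the signal differed 2.12-fold between arrays, and signals were divided by it. The slide was shared by all 8 arrays, and its first row held the LPS samples and its second row the cesarean samples, so row and group cannot be told apart. The number of arrays limits the precision. Among miRNAs chosen as markers of the cells that could feed amniotic fluid, all 7 of epithelium passed on 1 array or more. So did all 3 of red blood cells and all 4 of leukocytes, against 32.5% of all miRNAs on the array. Fewer vesicles from a cell type and less of a miRNA per vesicle cannot be told apart in such bulk samples.

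By this share of spots, 6 products of the cluster were measured on every array, and the other 4 were at or near background. Of the 3p arms, 5 of 6 were well above background on all 8 arrays, namely miR-291a-3p, miR-292a-3p, miR-293-3p, miR-294-3p and miR-295-3p. Of the 4 members from 5p arms, 1 was, namely miR-290a-5p. This makes 60% of the members, against 17.9% (336 of 1881) of all miRNAs on the array. On at least 1 array 80% of the members were detected, against 32.5% of all.

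**Figure D1:**
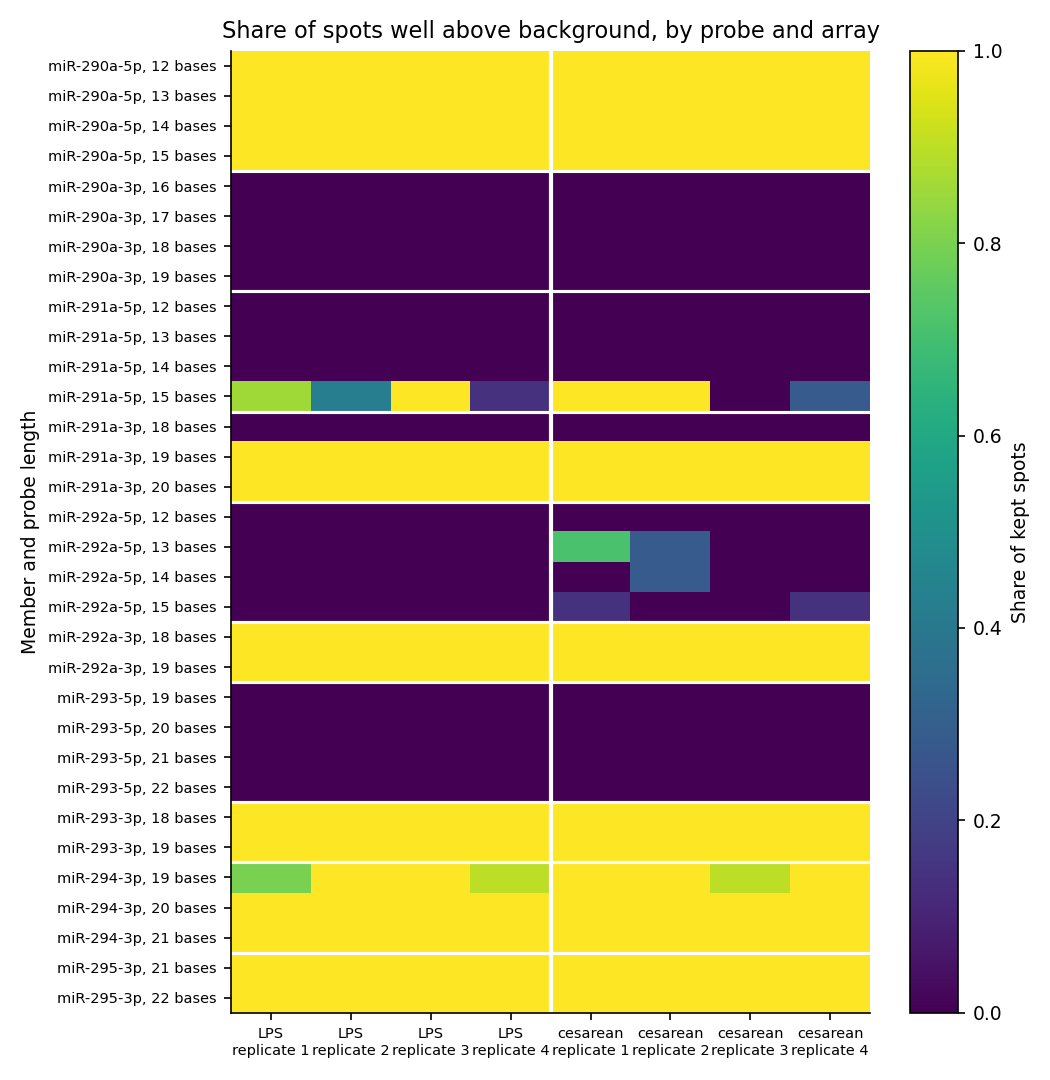
Share of kept spots well above background (colour, from 0 to 1) for each of the 32 probes of the 10 members (rows, by member and probe length in bases) on the 4 LPS arrays (left) and the 4 cesarean arrays (right). The probes of miR-290a-5p, miR-292a-3p, miR-293-3p, miR-294-3p and miR-295-3p passed on all 8 arrays, while those of miR-290a-3p and miR-293-5p passed on none.

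The members near background were read by probe and array. miR-290a-3p and miR-293-5p were well above background on 0 of 8 arrays with any of their 4 probes each. The 15-base probe of miR-291a-5p, the opposite strand of the miR-291a hairpin, gave unscaled signals of 15.3, 13.6, 21.9 and 8.08 on LPS replicates 1 to 4, against 18.7, 28.7, 6.73 and 12.2 on cesarean replicates 1 to 4. It passed on 2 arrays of each group, and the groups overlapped. For miR-292a-5p the 13-base probe gave 4.15, 5.84, 4.69 and 5.14 on the LPS arrays, against 17.2, 9.52, 5.07 and 3.13 on the cesarean arrays. Only cesarean replicate 1 passed, and after scaling every array was at the floor of 13.5, the level below which signals were not told apart. These 4 members were not tested, since testing required that LPS or cesarean samples pass on 3 or more of their 4 arrays. The scanner software's own detection call passed miR-291a-5p on every array but cesarean replicate 3. It passed miR-292a-5p on cesarean replicates 1 and 2. By that call too, 6 members passed on all arrays. The probes of miR-291a-5p and miR-292a-5p had 12 to 15 bases, as had those of miR-290a-5p. Those of the measured 3p members had 18 to 22. Whether probe length bears on detection was not tested.

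Related miRNAs on the array help to place the cluster. Of the 8 other products of the same cluster (both arms of miR-290b, miR-291b and miR-292b, with miR-294-5p and miR-295-5p), 1 was well above background on any array. It was miR-294-5p, on 2 LPS arrays and 1 cesarean array. The 12-base to 14-base probes of miR-291a-5p, which passed on no array, had 1 mismatch to miR-294-5p. On the scaled values miR-291a-5p and miR-294-5p were both highest on cesarean replicate 2 (log2 4.53 and 4.61). Whether they share signal was not tested. The miR-302 and miR-367 cluster, which is also typical of pluripotent cells and includes miRNAs with the AAGUGCU seed, was well above background on no array for any of its 10 products. The miR-17 family carries the seed AAAGUGC, the same core shifted by 1 base, and is found in most dividing cells. Of its 6 listed members 5 were on the array, and all 5 were well above background on all 8 arrays.

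None of the 6 measured products of the miR-290 to miR-295 cluster differed between LPS and cesarean exosomes past the threshold (limma over 470 miRNAs, Benjamini-Hochberg adjusted p of 0.05). In that test 4.89% of all 470 miRNAs passed, 12 of them higher in LPS (2.55%) and 11 lower (2.34%). At an unadjusted p of 0.05, 25.1% of the 470 passed and again 0 of the 6 members. The 5 measured 3p products were lower in the LPS mean and miR-290a-5p was higher, by at most 0.36 on the log2 scale in either direction. The members' median difference was -0.14, against -0.06 over all 470, and 54.5% of the 470 were lower at any size.

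**Figure D2:**
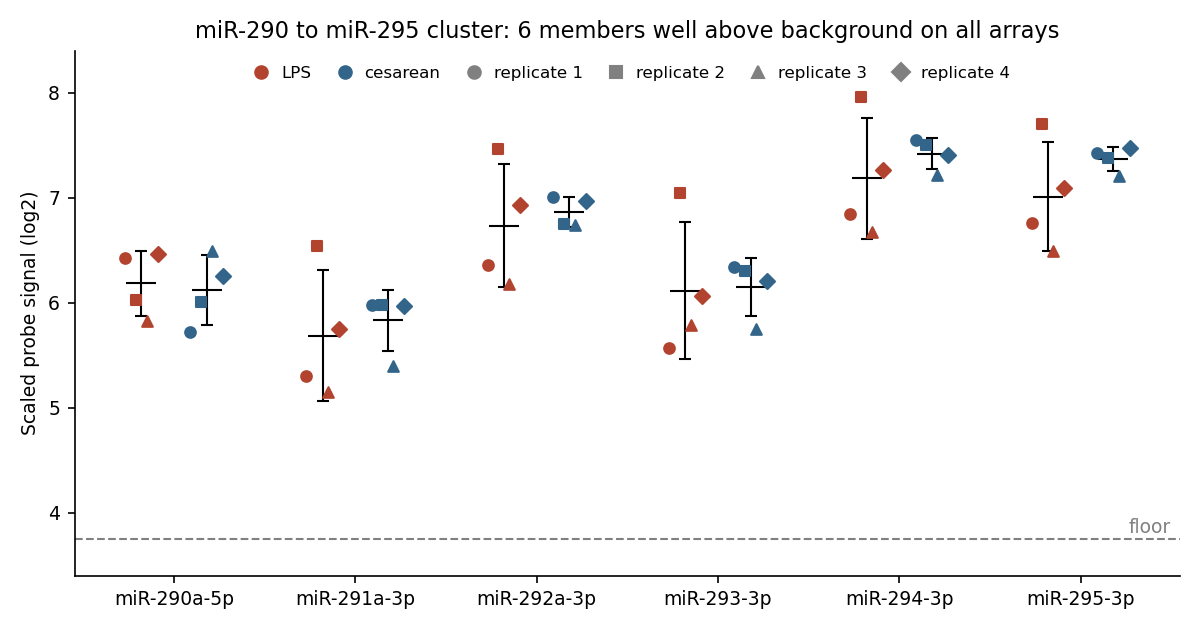
Scaled probe signal (log2) of the 6 members that were well above background on all arrays, with the 4 LPS arrays (left of each pair) and the 4 cesarean arrays (right) as points, and the mean and SD as black bars. The groups overlap for every member, and on this scale LPS replicate 2 (square) is the highest point for all 5 of the 3p members, which it is not without scaling. Levels of different miRNAs come from different probes and are not comparable.

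The AAGUGCU seed group was measured through all 3 of its members. For miR-294-3p, a main stem cell product of the cluster, scaled signals (log2) were 6.85, 7.96, 6.67 and 7.26 on LPS replicates 1 to 4, against 7.55, 7.50, 7.22 and 7.41 on cesarean replicates 1 to 4. The LPS arrays reached both above and below the whole cesarean range. The mean was 7.18 ± 0.57 in LPS and 7.42 ± 0.15 in cesarean exosomes (SD, n = 4 each), a difference of -0.24 ± 0.30 (SE; 95% interval -0.90 to 0.42) with a limma adjusted p of 0.671. miR-295-3p gave 6.76, 7.70, 6.49 and 7.09 in LPS, against 7.43, 7.38, 7.21 and 7.47 in cesarean samples. LPS replicates 1, 3 and 4 were below every cesarean array and LPS replicate 2 was above all of them. Its means of 7.01 ± 0.52 in LPS and 7.37 ± 0.11 in cesarean samples differed by -0.36 ± 0.28 (SE; 95% interval -0.98 to 0.26; limma adjusted p of 0.450), the lowest p of the members (0.226 unadjusted). miR-291a-3p gave 5.30, 6.54, 5.15 and 5.75 in LPS, against 5.98, 5.98, 5.39 and 5.97 in cesarean samples. Cesarean replicate 3 stood below the other 3 cesarean arrays, which were nearly level. The difference of -0.14 ± 0.33 (SE; 95% interval -0.87 to 0.58; limma adjusted p of 0.840) lay within the spread of both groups, with means of 5.69 ± 0.62 in LPS and 5.83 ± 0.29 in cesarean samples.

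The other 2 measured 3p products have seeds of their own or none on record here. miR-293-3p, whose seed is GUGCCGC, gave 5.57, 7.04, 5.79 and 6.07 in LPS, against 6.34, 6.31, 5.75 and 6.21 in cesarean samples. Its group means almost coincided, at 6.11 ± 0.65 in LPS and 6.15 ± 0.27 in cesarean samples, with a difference of -0.04 ± 0.33 (SE; 95% interval -0.77 to 0.70; limma adjusted p of 0.959). miR-292a-3p gave 6.36, 7.46, 6.18 and 6.93 in LPS, against 7.01, 6.75, 6.74 and 6.97 in cesarean samples. Again the LPS arrays spanned a range that enclosed all cesarean arrays. The means were 6.73 ± 0.59 in LPS and 6.87 ± 0.14 in cesarean samples, a difference of -0.14 ± 0.30 (SE; 95% interval -0.80 to 0.53; limma adjusted p of 0.835).

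On the scaled values the single measured 5p product had another order of arrays. miR-290a-5p, with the seed CUCAAAC, gave 6.43, 6.03, 5.83 and 6.47 in LPS, against 5.72, 6.0, 6.50 and 6.26 in cesarean samples. LPS replicate 2, the highest LPS array for each 3p member, had only LPS replicate 3 below it among the LPS arrays here. Without scaling, cesarean replicate 1 was the highest array for miR-290a-5p, as it was for each measured 3p member. Means of 6.19 ± 0.31 in LPS and 6.12 ± 0.33 in cesarean samples differed by 0.07 ± 0.26 (SE; 95% interval -0.51 to 0.64; limma adjusted p of 0.901). The 95% intervals of the 6 members reach from -0.98 to 0.70 on the log2 scale, and 4 arrays a group did not tell values inside a member's interval from 0.

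**Figure D3:**
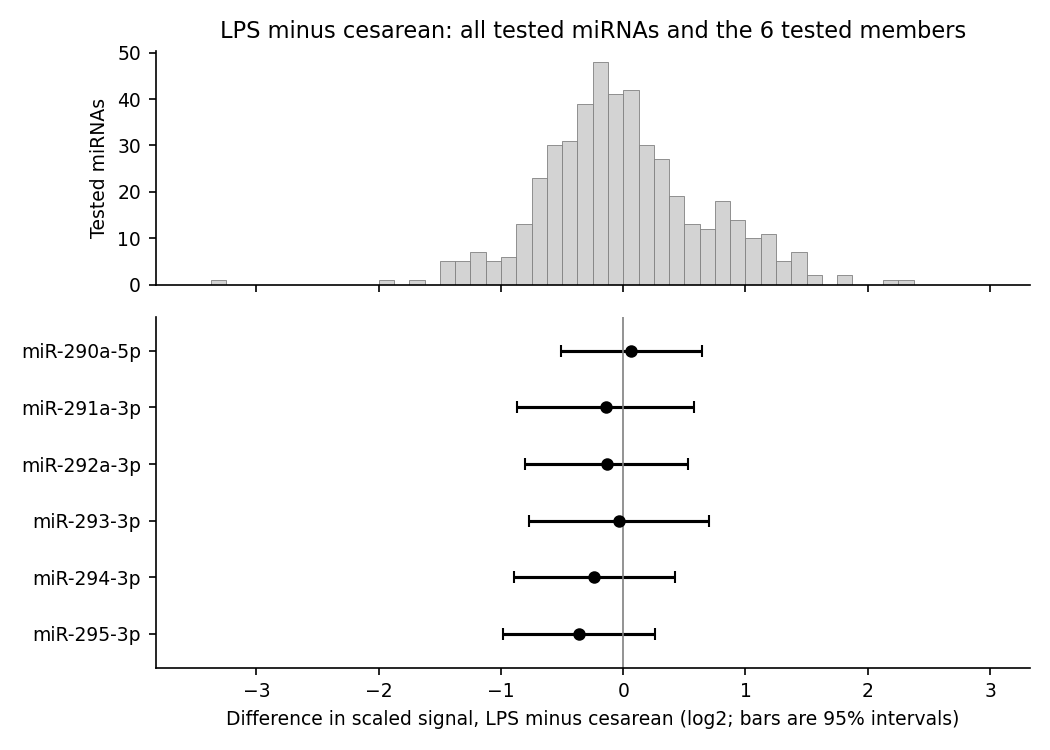
Difference in scaled signal, LPS minus cesarean (log2), as a histogram of all 470 tested miRNAs (top) and for the 6 tested members with 95% intervals (bottom). The members' values run from -0.36 (miR-295-3p) to 0.07 (miR-290a-5p), and every interval includes 0.

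The count of members whose LPS and cesarean arrays did not overlap was 0 of 6, while 17.0% of the 470 miRNAs did not overlap, 7.23% with LPS as the lower side. Where several probes read a member, they gave the same sign. The 4 probes of miR-290a-5p differed by 0.07 to 0.13 between LPS and cesarean samples. Of the probes of the 3p members, 11 were well above background on all 8 arrays and 11 of these were lower in LPS, by -0.04 to -0.45. These probes overlap in sequence and read the same RNA, so they are no separate replicates. The 18-base probe of miR-291a-3p passed on no array, whereas its 19-base and 20-base probes passed on all 8.

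The authors' deposited value table has nearly level column medians, but the sources used here do not give its normalization. Differences computed here from it were 0.16 for miR-290a-5p, -0.04 for miR-291a-3p, -0.14 for miR-292a-3p, -0.03 for miR-293-3p, -0.27 for miR-294-3p and -0.39 for miR-295-3p. Each had the same sign as in the scanner data. The lowest adjusted p among them was 0.349 by limma, so again none passed.

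The 5 measured 3p members moved together from array to array. Likeness was taken as the root mean square difference between profiles over the 8 arrays, each centred on its own mean (log2), among the 336 miRNAs well above background on all arrays. miR-294-3p served as the starting point by a rule on the mean scaled signal, which ranks different probes and is no order of abundance. Of the 335 others, the nearest to it were miR-295-3p at 0.0935, miR-292a-3p at 0.110, miR-291a-3p at 0.117 and miR-293-3p at 0.177, and the fifth was miR-7031-5p at 0.212. The 4 nearest profiles were thus the 4 other measured 3p members. The 10 pairs of 3p members differed by 0.0935 to 0.251 with a median of 0.149, while the median over all 56280 pairs of the 336 miRNAs was 0.666. Seen from each 3p member in turn, the least like of the other 4 stood at rank 4, 5, 4, 4 and 9 for miR-291a-3p, miR-292a-3p, miR-293-3p, miR-294-3p and miR-295-3p. Likeness was also taken under 6 other treatments of the arrays. A factor per array cancels in it, so no scaling, spike-in scaling and the percentile over all probes could not change it above the floor. Under quantile normalization, normexp background and the deposited value table, the 4 nearest profiles to miR-294-3p were again these 4. The part of signal shared between probes in this likeness was not tested.

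miR-290a-5p was at rank 127 from miR-294-3p, with a difference of 0.516. From the 5 members of the 3p side its distance ran from 0.481 to 0.608. Its own nearest profile was miR-6908-5p at 0.10. Before scaling, the miR-290a-5p signal was 70.0, 59.9, 82.6 and 66.5 on the LPS arrays, against 84.4, 80.0, 68.9 and 61.7 on the cesarean arrays. That is a range of 1.41-fold, narrower than the 2.12-fold range of the 75th percentile by which it was divided. For miR-294-3p the unscaled signal was 93.6, 228, 148 and 116 on the LPS arrays, against 299.5, 226, 114 and 137 on the cesarean arrays. The 5 measured 3p members ranged 3.09-fold to 3.35-fold between arrays before scaling. These arrays share slide, labelling and scaling, and the likeness is a description of them.

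**Figure D4:**
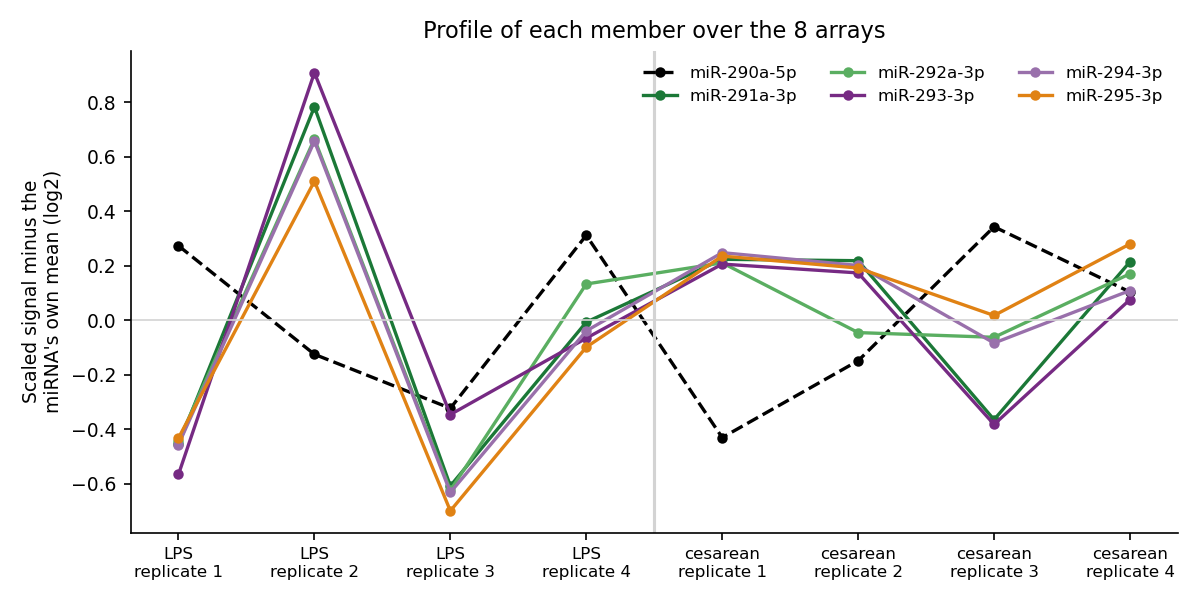
Scaled signal of each measured member minus its own mean over the 8 arrays (log2), for LPS replicates 1 to 4 (left) and cesarean replicates 1 to 4 (right). The 5 solid lines of the 3p members run together and, on this scale, peak at LPS replicate 2, while the dashed line of miR-290a-5p takes another course.

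After scaling to the 75th percentile, LPS replicate 2 stood apart for the 3p products. It was the highest of all 8 arrays for all 5 of them, as it was for 18.2% (61) of the 336 miRNAs. Averaged over the 5, the scaled signal (log2) was 6.17, 7.34, 6.05 and 6.62 on LPS replicates 1 to 4, against 6.86, 6.78, 6.46 and 6.81 on the cesarean arrays. LPS replicate 1 and LPS replicate 3 were the lowest of the 8, LPS replicate 2 was the highest, and the cesarean arrays lay between. This order depended on the scaling. Without scaling between arrays the mean over the 5 was 5.87, 7.22, 6.59 and 6.21 on the LPS arrays, against 7.54, 7.10, 6.07 and 6.50 on the cesarean arrays, and cesarean replicate 1 was the highest array for all 5, as it was with spike-in scaling. With the percentile over all probes, quantile normalization, normexp background or the deposited value table, LPS replicate 2 was the highest for all 5. The spread turned in the same way. After scaling to the 75th percentile, the SD over LPS arrays was 2.14 times that over cesarean arrays for miR-291a-3p, 4.11 times for miR-292a-3p, 2.38 times for miR-293-3p, 3.91 times for miR-294-3p and 4.54 times for miR-295-3p, against 0.931 times for miR-290a-5p. Over the 336 miRNAs the LPS SD was the larger for 67%, the median ratio was 1.35, and 27.7% had a ratio over 2. Without scaling, the ratio of the 5 measured 3p members was 0.830 to 0.985 and the median over the 336 was 0.948, and with spike-in scaling these were 0.695 to 0.845 and 0.874. The other 4 treatments of the arrays gave ratios above 1 for all 5, from 1.49 upwards. With 4 arrays a group the ratio for a single miRNA is imprecise, and the 5 ratios rest on the same arrays.

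On this scale LPS replicate 2 was the highest array of each measured 3p member, so leaving it out had to lower their LPS means. Without LPS replicate 2 the 3p members were all further below the cesarean samples. The difference became -0.59 ± 0.25 (SE) for miR-295-3p and -0.49 ± 0.25 for miR-294-3p, with limma adjusted p of 0.216 and 0.288. The array was singled out on these same values, so they are no separate support for a difference. The difference was -0.43 for miR-291a-3p, -0.38 for miR-292a-3p, -0.34 for miR-293-3p and 0.12 for miR-290a-5p, and again no member passed. Without LPS replicate 3 the members' median difference was 0.04, and miR-291a-3p (0.03), miR-292a-3p (0.05) and miR-293-3p (0.07) were higher in LPS. Which side the LPS mean of these 3 lay on therefore rested on single arrays.

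Another group of miRNAs was also high on LPS replicate 2 on this scale. The miRNAs named miR-669, miR-467, miR-466 or miR-297, many of which lie in an intron of Sfmbt2 and are abundant in mouse placenta, had 18 tested members of 61 on the array, of which 0 passed the threshold. The filter let in 6 of the 18 through the LPS arrays alone, so no count of directions is given for them. The 12 that were well above background on 3 or more arrays of both groups had a mean scaled signal (log2) of 5.61, 7.91, 6.05 and 6.85 on the LPS arrays, against 5.83, 5.71, 5.60 and 5.54 on the cesarean arrays. LPS replicates 2 and 4 were the highest for both these miRNAs and the 3p members among the LPS arrays, but these miRNAs were above the cesarean range on LPS replicate 3 as well, where the 3p members were lowest. Whether they have a part in the cluster's pattern was not tested.

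Of all 470 tested miRNAs 214 were higher in LPS at any size and 2.55% passed the threshold as higher. Epithelial markers were higher in LPS for 6 of 7, with a median difference of 1.23 and 3 past the threshold. The mean of the epithelial markers was 8.51, 7.59, 8.10 and 7.13 on the LPS arrays, against 6.60, 7.04, 6.45 and 6.97 on the cesarean arrays. This mean was highest on LPS replicate 1, but single markers differed. miR-200c-3p (9.51) and miR-141-3p (6.91) were highest on LPS replicate 2, and the other epithelial markers on LPS replicate 1. Of the 3 red blood cell markers 1 passed as higher in LPS, miR-144-3p, which was well above background on 4 LPS arrays and 0 cesarean arrays and so entered the test through the LPS arrays alone. Of the 2 tested leukocyte markers 1 passed as higher, miR-142a-3p, and the other, miR-223-3p, differed by 0.09 with a limma adjusted p of 0.874. Their part in the cluster's values was not tested.

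The miR-17 family shares most of the seed with the AAGUGCU members. While 54.5% of the 470 tested miRNAs were lower in LPS at any size, of its 5 tested members 5 were lower and 0 passed. The median difference was -0.59, with -0.72 ± 0.33 (SE) for miR-17-5p, -0.69 ± 0.32 for miR-20b-5p and -0.59 ± 0.31 for miR-20a-5p at limma adjusted p of 0.205, 0.212 and 0.256. miR-93-5p differed by -0.26 and miR-106b-5p by -0.10. Their mean was 7.78, 7.33, 7.68 and 7.18 on the LPS arrays, against 8.19, 8.53, 7.30 and 7.82 on the cesarean arrays. On this scale the 3p members of the cluster had another order over the LPS arrays, with replicate 2 highest rather than replicate 1. Whether the 2 groups of miRNAs differ in their response was not tested.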

How the data were processed

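The spot intensity values are, per the file headers, linear background-subtracted signals read with Agilent Feature Extraction 10.7.1.1 with no scaling across arrays. The submitters' processing notes give version 9.1 instead. Per the labels' protocols, Cy3-labelled cRNA was made from 0.5 μg of RNA, a product of mRNA, and the sources used here do not say how miRNAs were labelled. The authors' deposited value table holds log2 values, and the sources used here do not give their normalization. Its column medians are 2.14 to 2.15, and each column correlated best with the scanner file of its own array (r 0.958 to 0.964 across 336 miRNAs).

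From the 58594 spots of each array, control spots and spots with outlier marks were left out (2.99% to 3.48% of miRNA spots). No miRNA spot was saturated. Probe means were divided by each array's 75th percentile over the 618 probes well above background on all arrays, put on a common scale, raised to a floor of 13.5 (log2 3.75), and the brightest probe stood for each miRNA. The test covered the 470 miRNAs that passed background on 3 or more of the 4 LPS arrays or of the 4 cesarean arrays, and used R 4.3.3 and its package limma, version 3.58.1 (lmFit, eBayes, LPS minus cesarean, two-sided, Benjamini-Hochberg over all 470), after a test on simulated data. Python 3.11.15 with numpy 2.4.6, pandas 2.3.3 and matplotlib 3.10.9, and the R package data.table, version 1.17.8, served for tables and plots.

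Samples were grouped by their labels, which pair none. Replicates were numbered in accession order. The members and the lists of related and marker miRNAs were chosen with earlier results of these data known. Named were all 10 members, at most 4 examples of a list and the 5 profiles nearest to that of miR-294-3p. Added after their values were seen were miR-200c-3p, miR-141-3p, miR-223-3p, the fifth measured miRNA of the miR-17 family and the nearest profile to miR-290a-5p. Alternatives covered scaling, background correction, summary per miRNA, filters, floor, weights, slide column and leaving out each array. A sum of the scanner software's totals per probe was added after seeing the data, as was the order, spread and likeness of the 3p members under other scalings.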

Additional observations from a re-analysis of the deposited data

Results flagged for a closer look

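Among the 6 measured members, each in 2 groups of 4 arrays, 1 of 12 groups held an array far from the others. miR-291a-3p on cesarean replicate 3 was at 5.39 (log2 scaled signal), while the nearest of the other cesarean arrays was at 5.97, and the gap took up a share of 0.985 of the group's range, more than Dixon's 95% critical value for 4 values. Chance marks about 1 in 20 groups in this way. For miR-291a-3p the scanner software's total signal was also not the sum of its probe totals. It was 44.0 on cesarean replicate 3, which is 4.39 times the sum, and 35.2 on cesarean replicate 1, against a sum of 30.6. On LPS replicates 1 to 4 it was 4.43, 2.15, 3.66 and 3.57 times the sum. Over all miRNAs and arrays detected by the scanner software, 21.9% (961 of 4397) of totals were over 1.5 times their sum. Where detected, totals were 6.72 to 48.8 times the sum for miR-291a-5p. For miR-292a-5p they were 19.9 and 17.8 times on cesarean replicates 1 and 2. The totals of miR-290a-5p, miR-292a-3p, miR-293-3p, miR-294-3p and miR-295-3p matched their sums. The cause was not tested.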

How the results depend on the processing

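No member passed the threshold under any of the 22 alternatives, and 115 of 132 member values kept their direction. A floor 2 times as high, slide column as a block, no filter and detection on all 8 arrays left each member's difference as it was. The direction could therefore not change under them, and they are included in these counts. miR-294-3p (-0.49 to -0.06) and miR-295-3p (-0.59 to -0.19) were lower in LPS in all 22, with adjusted p of 0.288 to 0.929 and 0.192 to 0.778. miR-290a-5p turned lower without scaling (-0.079), with spike-in scaling (-0.056) and with array weights (-0.094), and ranged from -0.065 to 0.19 when each array was left out. miR-293-3p turned higher with the percentile over all probes (0.062), quantile normalization (0.043), normexp background (0.020) and the scanner software's total signal (0.017), and ranged from -0.34 to 0.15 with an array left out. That total gave 0.64 for miR-291a-3p, which ranged from -0.43 to 0.034 with an array left out, and miR-292a-3p ranged from -0.38 to 0.050.

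The 23 miRNAs past the threshold became 1 without scaling and with spike-in scaling, 13 with the percentile over all probes, 36 with quantile normalization, 9 with normexp, 52 with array weights, 2 with no filter, 15 with detection on all 8 arrays, and 3 to 79 with an array left out (79 without LPS replicate 1, 3 without cesarean replicate 3). The causes were not tested. Without scaling the median of all miRNAs was -0.20 and that of the members -0.29. No paired analysis was possible because the labels pair no samples. With slide column as a block 1 miRNA passed. Signal near background limits the 4 untested members, and 4 arrays a group limit the others.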
